A study of Mus musculus with 5 samples.

Results

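Dendritic cells were selected here by a gate on measured transcripts, which found 200 cells among the 28588 cell barcodes that passed the quality limits, or 0.700%. The quality limits were 500 or more genes per barcode and no more than 15% of UMIs (unique molecular identifiers, 1 per captured transcript) from mitochondrial genes. A gated cell had at least 50 UMIs per 10000 from the MHC class II genes H2-Aa, H2-Ab1, H2-Eb1 and Cd74. It also had at least 2 UMIs summed over Flt3, Xcr1, Clec9a, Cd209a, Fscn1 and Zbtb46. Cells with 20 or more C1q UMIs per 10000, which mark macrophages, were outside the gate. So were cells with 2 or more UMIs of Cd79a and Cd79b or of Cd3d, Cd3e and Trac, and cells with 50 or more per 10000 of the collagen genes and Dcn. Levels of these genes are given as a description of what was selected, and no test is read for them.

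Dendritic cells are the antigen-presenting leukocytes that take up material in a tissue, load it onto MHC molecules and carry it to T cells. Conventional type 1 cells (cDC1), which bear Xcr1 and Clec9a, specialise in presenting engulfed material to CD8 T cells. Type 2 cells (cDC2), many of which bear the lectin Cd209a, mainly prime CD4 T cells. On activation, dendritic cells of either type turn on Fscn1, which bundles actin, and Ccr7, the receptor that guides them into lymphatic vessels. In the mammary gland they lie in the stroma and between epithelial cells.

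The cells came from the mammary gland of 5 mice, profiled with 1 10x Genomics 3′ version 3 library per mouse. The 3 libraries labelled Frmd3 knockout are called KO1, KO2 and KO3, and the 2 labelled wild type WT1 and WT2. Frmd3 encodes a membrane-skeleton protein of the FERM-domain family. Which part of the gene was deleted, and the strain, age, sex and reproductive stage of the mice, are not stated in the labels.

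The gate held 33, 23 and 46 cells in KO1, KO2 and KO3, and 54 and 44 cells in WT1 and WT2. Their median depth was 10233, 9309 and 7453 UMIs in KO1, KO2 and KO3, against 10314 and 10450 UMIs in WT1 and WT2. Summed over cells, a KO library held 225528 to 378738 UMIs and a WT library 539847 and 585350. KO3 stood apart from the other libraries: in the gated cells, the chi-square of gene counts per degree of freedom was 8.34 to 9.93 for pairs with KO3 and 3.82 to 6.31 for pairs without it. KO3 also had a different software version (Cell Ranger 6.1.2, against 6.0.2 for the others), so any effect of that version cannot be told apart from the library. Pairs of libraries shared 1 to 21 kept barcodes and 0 barcodes of gated cells. Frmd3 itself had 0 UMIs in the gated cells of all 5 libraries, and 3 UMIs, the limit that a count of 0 allows, correspond to CPM values (UMIs scaled to a common library total) of 7.94, 13.3 and 7.92 in KO1, KO2 and KO3, against 5.56 and 5.13 in WT1 and WT2. Over all kept cells, Frmd3 was at 2.12, 3.06 and 1.88 CPM in the KO libraries, against 1.45 and 2.33 CPM in the WT libraries, so these 3′ counts give no check of the genotype labels.

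The transcripts of the gated cells were those of leukocytes that present antigen. Ptprc (CD45) was detected in 195 of 200 cells, or 97.5%. The median cell had 451 MHC class II UMIs per 10000. C1q was at 0 in 161 cells. Among the genes of the gate, Cd209a was detected in 135 cells, Flt3, the cytokine receptor that drives dendritic cell development, in 92, and Zbtb46, a transcription factor of conventional dendritic cells, in 89. Clec9a was detected in 41 cells, Xcr1 in 16 and Fscn1 in 15.

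Free RNA gives stray UMIs in droplets, so the same genes were counted in 12788 collagen-high barcodes with no Ptprc UMI, whose median depth was 9743 UMIs against 9750 in the gated cells. Of the collagen-high barcodes, 0.141% had Flt3, 0.0313% Clec9a, 0.0626% Xcr1 and 1.08% Cd209a. Zbtb46 was found in 10.1% and Fscn1 in 28.4% of them, so these 2 genes were less selective for leukocytes in this tissue. Many cells lay near the limits: 48 cells had exactly the minimum of 2 marker UMIs, and 72 further cells that met every other limit had 1. The nearest cell inside the MHC class II limit had 57.1 UMIs per 10000 and the nearest outside 44.6. For C1q these values were 13.2 inside and 28.6 outside.

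By the gate gene with the most UMIs, 129 cells were led by Cd209a, 31 by Xcr1 and Clec9a summed, and 11 by Fscn1. The other 29 had Flt3 or Zbtb46 only, or a tie. This sorting used the gate genes, so levels of other genes are set side by side below, with no test. CPM by leading gene, in other cell groups and summed over lists carry no further scaling.

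Genes known from cDC1 were higher in the Xcr1/Clec9a-led cells than in the Cd209a-led cells for 10 of the 12 genes with at least 20 UMIs, against 50.8% of 6825 such genes in all. Irf8, the transcription factor that cDC1 need, was at 707 CPM in Xcr1/Clec9a-led cells and 52.5 CPM in Cd209a-led cells, over the 5 libraries summed, and at 758 CPM in Fscn1-led cells. Per library, Irf8 in Xcr1/Clec9a-led cells was at 383, 0 and 996 CPM in KO1, KO2 and KO3, against 826 and 348 CPM in WT1 and WT2. It was higher there than in the Cd209a-led cells in every library but KO2, which had only 3 Xcr1/Clec9a-led cells. Wdfy4, needed for cross-presentation, was at 351 against 59.8 CPM, Ppt1, a lysosomal thioesterase, at 396 against 49.6 CPM, and Cadm1, an adhesion molecule, at 136 against 8.03 CPM. In all, 5 of the 12 genes were higher in Xcr1/Clec9a-led cells in 5 of 5 libraries, against 3.21% of all genes. The chemokine Cxcl9, a ligand for activated T cells, was found in 10 of 31 Xcr1/Clec9a-led cells and 9 of 129 Cd209a-led cells.

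Of 16 genes known from cDC2, 3 were higher in Xcr1/Clec9a-led cells than in Cd209a-led cells, and 6 were lower there in 5 of 5 libraries, against 6.78% of all genes. Clec10a, a lectin that binds galactose sugars, was at 356 CPM in Cd209a-led cells and 55.8 CPM in Xcr1/Clec9a-led cells. Tmem176b, an endosomal ion channel protein, was at 349 and 58.5 CPM. Irf4, a transcription factor of cDC2, was at 123 and 16.0 CPM. Monocyte and macrophage transcripts were also counted in the Cd209a-led cells. Lyz2 (lysozyme) was found in 114 of 129 of them. Cd14, a lipopolysaccharide receptor, had at least 2 UMIs in 90. Of 8 macrophage markers, 7 had their highest level in these cells, against 20.8% of all genes, among them the mannose receptor Mrc1 at 222 CPM and Csf1r, a growth factor receptor, at 58.4 CPM. The markers do not separate cDC2 from monocyte-derived cells that bear Cd209a, so these cells are named by their leading gene. Lyz2 was found in 28 of 31 Xcr1/Clec9a-led cells as well, and in 28.6% of the collagen-high barcodes. Over all gated cells, macrophage markers summed to 301 to 1251 CPM per library, against 449 to 1204 CPM in collagen-high barcodes. Monocyte markers summed to 2731 to 9403 CPM in gated cells, against 5595 to 6774 CPM in those barcodes. The part of free RNA in these levels was not tested. Of 11 monocyte markers, 3 (27.3%) had their highest level in Cd209a-led cells, against 20.8% of all genes. Another 5 were highest in the cells with no leading gene, against 23.4% of all genes. Ly6c2, a monocyte marker, was found in 17 of 129 Cd209a-led and 9 of 31 Xcr1/Clec9a-led cells.

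The 11 Fscn1-led cells carried the transcripts of mature dendritic cells. Of 28 such genes outside the gate, 26 had their highest level there, against 28.1% of all genes. Ccr7 had at least 2 UMIs in 11 of 11 and was at 4497 CPM, against 483 CPM in Cd209a-led and 468 CPM in Xcr1/Clec9a-led cells. Ccl22, a chemokine that draws regulatory T cells, was at 1870, 105 and 324 CPM in the same order. Ccl5 was at 3661, 336 and 149 CPM. Cd40, a costimulatory receptor, was at 458, 52.5 and 50.5 CPM, and Il4i1, an amino acid oxidase, at 758, 13.1 and 16.0 CPM. Ly75 (DEC-205), an uptake receptor, was found in 7 of 11 Fscn1-led, 8 of 31 Xcr1/Clec9a-led and 2 of 129 Cd209a-led cells. Il12b, a subunit of interleukin-12, was found in 4, 4 and 3 cells of these groups. At least 2 Ccr7 UMIs were also seen in 50 Cd209a-led and 7 Xcr1/Clec9a-led cells.

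Of the markers listed for plasmacytoid and Langerhans cells, Siglech was rare and Cd207 was not detected. UMIs were found for all 13 plasmacytoid and 7 of 8 Langerhans markers. The plasmacytoid list summed to 488 to 1204 CPM per library in gated cells and 743 to 1359 CPM in collagen-high barcodes. For the Langerhans list these sums were 102 to 641 CPM and 236 to 444 CPM. Siglech, a receptor of plasmacytoid dendritic cells, had at least 2 UMIs in 6 cells, of which 4 were Xcr1/Clec9a-led and 0 Cd209a-led. Ccr9 and Klk1, further plasmacytoid genes, had 58 and 47 UMIs in 3 and 4 Xcr1/Clec9a-led cells, so a few plasmacytoid-like cells lay within that group. In KO1, 41 of 59 Siglech UMIs came from 1 Xcr1/Clec9a-led cell scored as a doublet. The part of these cells in the levels of that group, Irf8 included, was not tested. Cd207 (langerin), which marks Langerhans cells, was found in 0 of 200 cells, which allows a share of cells with a UMI of up to 1.5% and sets no limit on cells that express the gene. Mki67 or Top2a, which mark cycling cells, were found in 55 of 200 gated cells. Mki67 alone was found in 22% of gated cells, against 2.21% of the collagen-high barcodes.

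**Figure D1:**
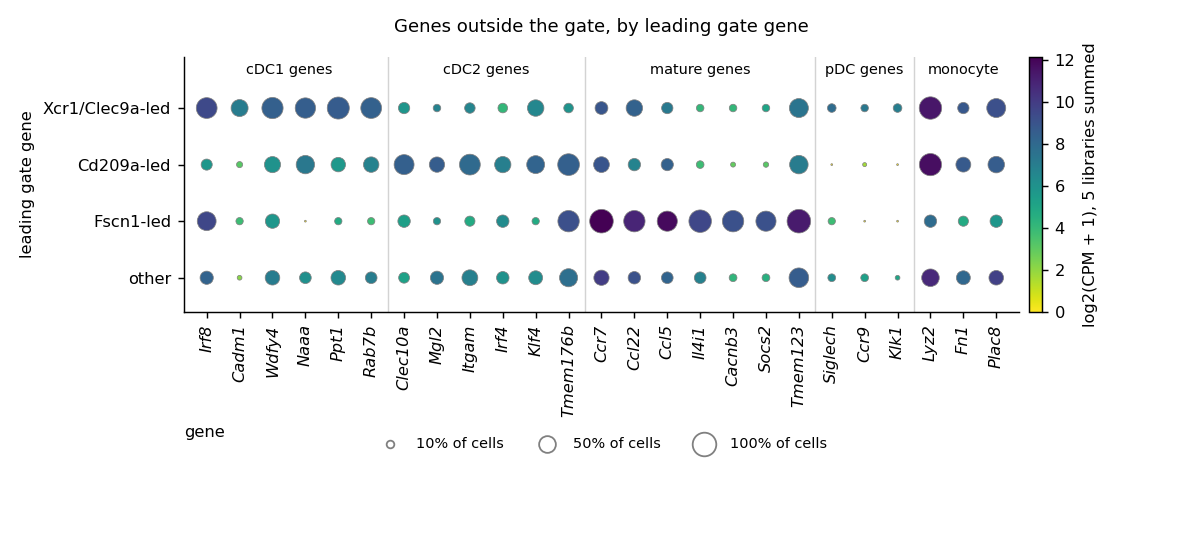
Levels of 25 genes outside the gate (columns) in gated cells grouped by their leading gate gene (rows), with colour for log2(CPM + 1) over the 5 libraries summed and circle area for the percentage of cells with a UMI. Wdfy4 and Ppt1 are darkest in the Xcr1/Clec9a-led row, at 351 and 396 CPM, Clec10a in the Cd209a-led row at 356 CPM, and Ccr7 in the Fscn1-led row at 4497 CPM.

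The share of dendritic cells did not separate the genotypes. Gated cells made up 0.318% (exact 95% binomial interval 0.219 to 0.447), 0.495% (0.314 to 0.741) and 2.02% (1.48 to 2.68) of kept cells in KO1, KO2 and KO3. They made up 1.07% (0.803 to 1.39) and 0.706% (0.513 to 0.947) in WT1 and WT2. These intervals cover counting error only. KO3 was the highest library and KO1 and KO2 the lowest 2, so the WT values lay inside the KO range. The mean was 0.944 ± 0.935% in KO (SD, n = 3) and 0.886 ± 0.255% in WT (SD, n = 2), a difference of 0.0574 percentage points (exact permutation test, two-sided, p = 1). With 3 against 2 libraries the smallest p this test can give is 0.1.

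Without KO3 the difference was -0.480 percentage points, and without WT2 it was -0.123. Among Ptprc-positive cells the shares were 1.10%, 3.28% and 8.08% in KO1, KO2 and KO3, against 3.71% and 1.83% in WT1 and WT2. The mean was 4.15 ± 3.57% in KO (SD, n = 3) and 2.77 ± 1.33% in WT (SD, n = 2; exact permutation p = 0.9), and the difference was -0.579 percentage points without KO3. Kept cells differed in depth, with medians of 4363, 12987 and 6901 UMIs in the KO libraries, against 8700 and 12470 in the WT libraries. With every cell thinned to 2000 UMIs, the shares were 0.0953%, 0.162% and 0.593% of 9445, 4329 and 2025 cells in KO1, KO2 and KO3, against 0.648% and 0.266% of 4632 and 6011 cells in WT1 and WT2. That put the KO mean below the WT mean, by -0.174 percentage points.

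**Figure D2:**
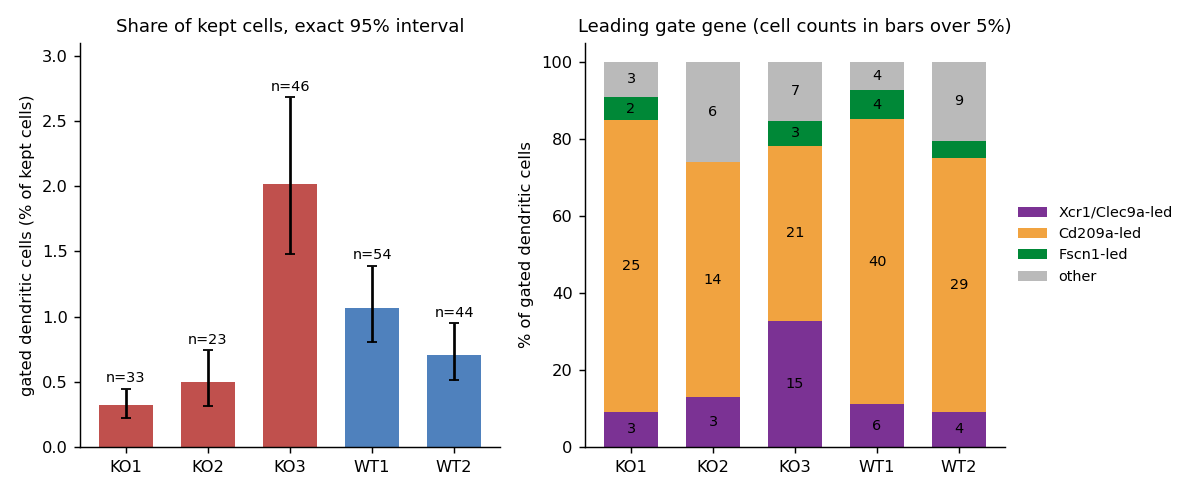
Left, gated dendritic cells as a percentage of kept cells in each library, with exact 95% binomial intervals and the number of cells. Right, the make-up of the gated cells by leading gate gene, with cell counts. KO3 holds the highest share at 2.02%, and 15 of its 46 cells are Xcr1/Clec9a-led.

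The make-up of the gated cells also varied most in KO3. Cd209a-led cells numbered 25, 14 and 21 in KO1, KO2 and KO3, and 40 and 29 in WT1 and WT2. That was 60.8 ± 15.1% of gated cells in KO (SD, n = 3) and 70.0 ± 5.77% in WT (SD, n = 2; exact permutation p = 0.5). Xcr1/Clec9a-led cells numbered 3, 3 and 15 in the KO libraries and 6 and 4 in the WT libraries, or 18.2 ± 12.6% in KO (SD, n = 3) and 10.1 ± 1.43% in WT (SD, n = 2; exact permutation p = 0.7). KO exceeded WT by 8.15 percentage points, and by 0.966 when KO3 was left out. Fscn1-led cells numbered 2, 0 and 3 in the KO libraries and 4 and 2 in the WT libraries (exact permutation p = 0.8). Over the 4 subsets every adjusted p was 0.8.

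Expression was compared between genotypes on UMI counts summed over the gated cells of each library, so that libraries and not cells were the replicates. edgeR's quasi-likelihood test with Benjamini-Hochberg adjustment tested 4443 genes and called 0 at an adjusted p under 0.05, which is 0% in either direction. At an unadjusted p under 0.05 there were 113 genes. DESeq2 called 1 gene, Hspa1a, with 59 at an unadjusted p under 0.05. Without the filter on low counts edgeR called 29 genes, 10 higher and 19 lower in KO. The higher ones included Hspa1a, Tnfaip2, Rhof, Isg15, Dnajb1, Egr1, Nr4a1 and Icam1. The lower ones included the epithelial keratin Krt19 and Aqp5, AW112010, Cstb, Mmp19 and Apol7c. Over the 4 libraries with shared replicate numbers edgeR called 2 with no block and 7 with the replicate block. Of these 7, Hspa1a and Hspa1b were higher in KO and Wfdc2, Ccl22, Apol7c and AW112010 lower. The other one is a gate gene and is not read. Without KO3 it called 2 genes, Hspa1a and Hspa1b. Without WT1 it called 13, all lower in KO, among them the epithelial keratins Krt7 and Krt19 with Wfdc2 and Aqp5. The library ranges of KO and WT did not overlap for 678 genes (15.3%), of which 320 were higher in KO (7.2%) and 358 lower (8.06%). The median log2 difference over all genes was 0.01. On simulated counts the same test recovered 0% of genes changed 2-fold and 81.4% of those changed 4-fold, so changes near 2-fold were not detectable at this depth. The simulation gave every gene the same dispersion and had no single cells with extreme counts, so the 81.4% need not hold for the real sums. In those, Hspa1a did not pass in edgeR with a log2 difference of 4.90. The genes below are those with the smallest unadjusted p among genes whose library ranges did not overlap and whose higher group averaged at least 20 CPM. None of the 20 passed in edgeR (adjusted p = 0.999 for each).

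The gene that DESeq2 called was a heat shock gene. Hspa1a, an inducible HSP70 chaperone, reached 182, 53 and 513 UMIs in the gated cells of KO1, KO2 and KO3, against 11 and 17 UMIs in WT1 and WT2. Scaled by edgeR's library factors (TMM), as are all levels per library of single genes in the gated cells below unless stated, its level was 479, 264 and 1545 CPM in the KO libraries, against 20.5 and 29.9 CPM in the WT libraries. Every KO library lay above both WT libraries, with a log2 difference of 4.90 ± 1.01 (SE of the fit; edgeR adjusted p = 0.999, DESeq2 adjusted p = 9.08e-08). Without KO3 the log2 difference was 3.88 and passed in edgeR (adjusted p = 0.0129).

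The cells that carried Hspa1a differed between libraries. In KO1, 167 of the 182 UMIs came from 1 cell, which was also scored as a doublet, and in KO2, 49 of 53 came from 1 cell. In KO3, 35 of 46 cells had Hspa1a, against 12 of 33 in KO1 and 4 of 23 in KO2, and against 6 of 54 in WT1 and 5 of 44 in WT2. With the highest cell of each library left out, the level without TMM factors was 41.4, 18.5 and 1198 CPM in KO1, KO2 and KO3, against 11.4 and 10.4 CPM in WT1 and WT2. The level above WT rested on many cells in KO3 and largely on single cells in KO1 and KO2.

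KO3 also had the highest Hspa1a level outside the dendritic gate. Over all kept cells Hspa1a was at 146, 178 and 1897 CPM in the KO libraries, against 152 and 109 CPM in the WT libraries. In the C1q-high cells, which passed the same MHC class II limit but failed the C1q limit, it was at 572, 1743 and 5166 CPM, against 474 and 1258 CPM. The genotype difference in gated dendritic cells exceeded that in C1q-high cells by 3.45 ± 0.93 on the log2 scale (SE), which did not pass (edgeR interaction with library as a block, adjusted p = 1). Of 6683 genes in that interaction, edgeR called 0 (0%) and DESeq2 called 0. Unadjusted p-values lay under 0.05 for 186 genes in edgeR and 53 in DESeq2. Hspa1a was found in 31.0% of gated cells and in 37.6% of collagen-high barcodes, and the part of free RNA in its level was not tested.

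Hspa1a lies on chromosome 17 at 34969190-34972156 on the minus strand (GRCm38, mouse GENCODE release 21), beside its near-identical copy Hspa1b at 34956436-34959238. Reads of the 2 copies cannot be told apart with certainty, so their split is uncertain. Hspa1b was at 263, 160 and 1509 CPM in the KO libraries, against 26.1 and 26.4 CPM in the WT libraries.

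All 16 heat shock genes listed passed the low-count filter, and all 16 had a positive log2 difference, with a median of 1.18. Their library ranges did not overlap for 7 genes, all higher in KO, where 7.2% of all genes were, and 0 were called by edgeR. Dnajb1, a co-chaperone of HSP70, was at 145, 54.9 and 310 CPM in KO1, KO2 and KO3, against 44.8 and 42.3 CPM in WT1 and WT2 (log2 difference 1.98 ± 0.68, SE, and 1.26 without KO3). In KO1, 41 of its 55 UMIs came from 1 cell scored as a doublet. Without each library's highest cell, and without TMM factors, Dnajb1 was at 38.6, 32.3 and 169 CPM in KO, against 34.1 and 33.2 CPM in WT, and the ranges overlapped. Hsp90aa1, an inducible HSP90, was at 1048, 1142 and 2985 CPM, against 668 and 934 CPM, and its ranges also overlapped without the highest cells. Summed over the list, the level without TMM factors was 7641, 7179 and 17065 CPM in the KO libraries, against 5911 and 6529 CPM in the WT libraries. The same sum over all kept cells was 7553, 8298 and 18240 CPM, against 7637 and 7171 CPM. Without KO3 the median of the list was 0.35, the lowest of the values with 1 library left out.

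Immediate-early genes, which are transcribed soon after a cell is stimulated, had a median log2 difference of 0.52 over 20 genes that passed the filter, of 22 listed. Of these, 17 were positive and 3 negative, 5 had library ranges apart, all higher in KO, where 7.2% of all genes were, and 0 were called. Summed over the list, the level was 10337, 6394 and 8861 CPM in the KO libraries, against 6294 and 7080 CPM in the WT libraries, and these ranges overlapped. Egr1, a zinc-finger transcription factor, was at 195, 84.8 and 518 CPM in the KO libraries, against 33.6 and 70.5 CPM in the WT libraries (log2 difference 2.36 ± 0.86, SE, and 1.47 without KO3). Nr4a1, an orphan nuclear receptor, was at 203, 79.8 and 431 CPM, against 71.0 and 79.3 CPM. Without each library's highest cell, and without TMM factors, Egr1 was at 122, 23.1 and 275 CPM in KO, against 20.7 and 52.7 CPM in WT, so its ranges overlapped. Those of Nr4a1 overlapped without TMM factors. KO3 was also the highest library for Egr1 over all kept cells, with 724, 445 and 1983 CPM in KO, against 602 and 381 CPM in WT.

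**Figure D3:**
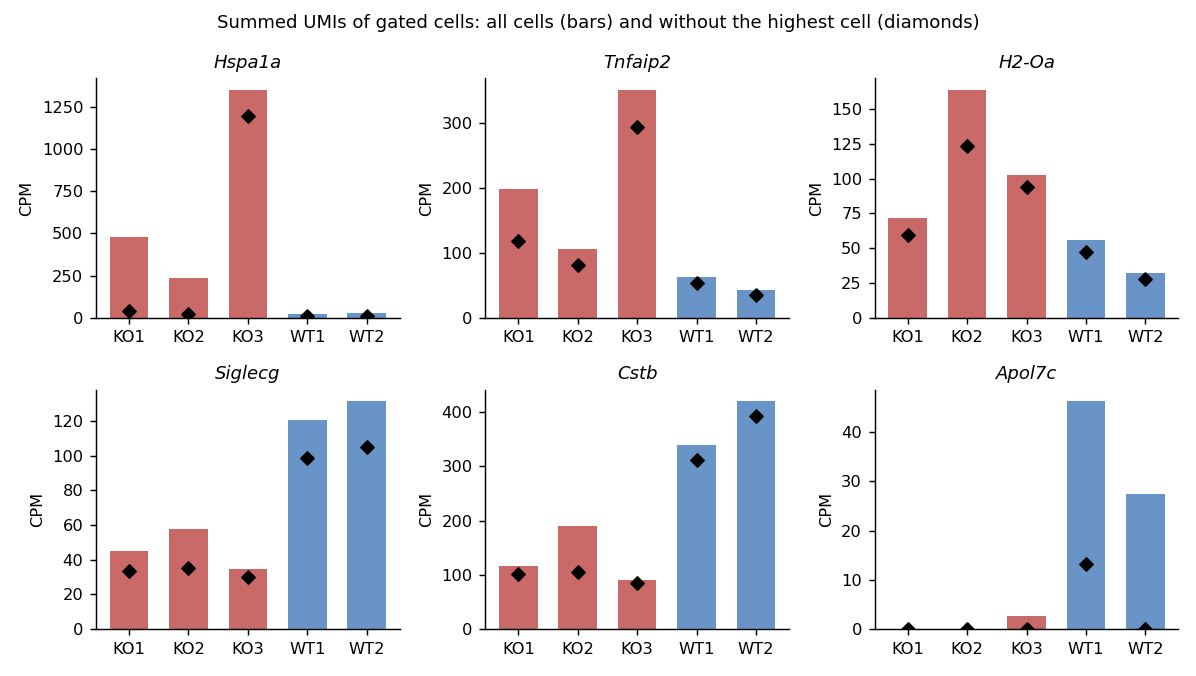
CPM without TMM factors of 6 genes in the gated cells of each library, for all cells (bars) and with the cell that holds the most UMIs of that gene left out (diamonds). For Hspa1a the KO1 value is 482 CPM with and 41.4 CPM without that cell, while Siglecg and Cstb keep KO below WT either way.

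Tnfaip2 had the smallest unadjusted p among genes higher in KO (edgeR, 0.00271). Tnfaip2, a protein induced by TNF, was at 197, 120 and 401 CPM in KO1, KO2 and KO3, against 63.5 and 44.04 CPM in WT1 and WT2. All KO libraries lay above the WT libraries, with a log2 difference of 2.16 ± 0.52 (SE). It was found in 11 of 33, 9 of 23 and 27 of 46 cells in the KO libraries, against 18 of 54 and 12 of 44 cells in the WT libraries. Without each library's highest cell, and without TMM factors, its level was 119, 80.4 and 294 CPM in KO, against 52.7 and 34.4 CPM in WT. Of 23 NF-kB and inflammatory genes tested, 17 were positive, with a median of 0.26 and 0 called. Library ranges were apart for 2 of them higher in KO and 1 lower, where 15.3% of all genes had ranges apart in either direction. Icam1, an adhesion ligand for T cells, was at 124, 145 and 497 CPM in the KO libraries, against 105 and 51.1 CPM in the WT libraries. Il1b, the cytokine interleukin-1 beta, was at 1582, 2030 and 4946 CPM, against 937 and 1793 CPM, and its ranges overlapped.

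The class I and class II lists of antigen presentation genes were read side by side, with no test between them. H2-Oa, a subunit of the molecule that restrains peptide loading onto MHC class II, was at 71.1, 185 and 117 CPM in KO1, KO2 and KO3, against 56.0 and 33.5 CPM in WT1 and WT2. Its KO libraries all lay above the WT libraries, with a log2 difference of 1.44 ± 0.45 (SE). Of 12 class II loading genes tested, 6 were positive and 6 negative, with a median of -0.05. H2-DMa, which exchanges peptides on class II, was at 613, 748 and 684 CPM in KO, against 685 and 668 CPM in WT. Of 20 MHC class I presentation genes tested, 14 were negative, and 0 were called. For 4 of them the ranges were apart and lower in KO, as for 8.06% of all genes. Summed over the list, the level was 8567, 9471 and 6989 CPM in KO1, KO2 and KO3, against 11468 and 10127 CPM in WT1 and WT2. Every KO library lay below both WT libraries. The same held over all kept cells, at 5206, 5939 and 4283 CPM in KO, against 8602 and 6931 CPM in WT. The median log2 difference was -0.27, which ranged from -0.45 to -0.04 with 1 library left out. B2m, the light chain of class I molecules, was at 1679, 2394 and 1139 CPM in KO, against 2599 and 2327 CPM in WT. Costimulatory genes had a median of 0.17 over 12 genes, and Cd86, a CD28 ligand, was at 266, 304 and 217 CPM in KO, against 207 and 231 CPM in WT.

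Further genes that were higher in all KO libraries included Rhof, a small GTPase of filopodia, at 26.3, 34.9 and 108 CPM, against 14.9 and 7.05 CPM in WT. Fgr, a Src-family kinase of myeloid cells, was at 52.6, 34.9 and 36.1 CPM, against 5.60 and 19.4 CPM. Arrb2, beta-arrestin 2, was at 36.8, 54.9 and 60.2 CPM, against 22.4 and 17.6 CPM. The ranges of these 3 genes did not overlap, and their log2 differences were 2.37 ± 0.72, 1.71 ± 0.58 and 1.31 ± 0.43 (SE). That of Rhof was 1.43 without KO3 and 2.98 without WT1, and that of Fgr was 1.11 without WT1 and 2.82 without WT2. Spen, a nuclear repressor, Wdr89 and Sertad2 had log2 differences of 1.31, 1.04 and 1.06. Rpl10-ps3, which can share reads with the ribosomal gene Rpl10, had 1.21 and is uncertain for that reason.

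Among genes lower in KO, Siglecg and Cstb were spread over many cells. Siglecg, an inhibitory receptor for sialic acids, was at 44.7, 64.8 and 39.2 CPM in KO1, KO2 and KO3, against 121 and 136 CPM in WT1 and WT2 (log2 difference -1.40 ± 0.34, SE). It was found in 10 of 33, 6 of 23 and 11 of 46 cells in the KO libraries, against 22 of 54 and 15 of 44 cells in the WT libraries. Cstb, cystatin B, an inhibitor of lysosomal cathepsins, was at 116, 214 and 102 CPM in KO, against 342 and 433 CPM in WT (log2 difference -1.45 ± 0.36, SE). With each library's highest cell left out, and without TMM factors, all KO values stayed below both WT values for these genes. Siglecg was then at 29.99 to 34.9 CPM in KO against 98.5 and 105 CPM in WT. Cstb was at 84.1 to 104 CPM in KO against 312 and 392 CPM in WT. Over all kept cells Cstb was at 131, 428 and 163 CPM in KO, against 302 and 391 CPM in WT, so there its ranges overlapped.

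Other genes with lower ranges in KO were Mmp19, a matrix metalloproteinase (log2 difference -1.67 ± 0.47, SE), and Slc11a1, a metal transporter of phagosomes (-1.94 ± 0.61). Gadd45g, a stress-response gene, had -1.25 ± 0.37 (SE), Slc25a24, a mitochondrial carrier, -1.58 ± 0.45, Ankrd12 -1.15 ± 0.33 and Cebpg, a bZIP transcription factor, -1.21 ± 0.38. For Mmp19, 66 of the 102 UMIs of WT2 came from 1 cell, and the log2 difference was -0.66 among cells with at least 3 marker UMIs. For Slc11a1, 13 of 24 UMIs in WT1 and 15 of 36 in WT2 came from 1 cell each. Without the highest cells, and without TMM factors, its ranges overlapped, with KO1 at 22.3 CPM and WT1 at 21.4 CPM. Its log2 difference was -3.18 without KO1.

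Apol7c was counted only in Fscn1-led cells, and Socs2 was highest in them. Apol7c, of the apolipoprotein L family, was counted 0, 0 and 1 times in KO1, KO2 and KO3, against 25 and 16 UMIs in WT1 and WT2. All 42 UMIs lay in 6 Fscn1-led cells, of which 1 was in KO3, 4 in WT1 and 1 in WT2, and 16 of 16 UMIs in WT2 came from 1 cell. Socs2, a suppressor of cytokine signalling, was at 7.90, 14.96 and 21.1 CPM in KO, against 78.4 and 28.2 CPM in WT (log2 difference -1.86 ± 0.60, SE, and -0.93 without WT1). Socs2 was at 549 CPM in Fscn1-led against 8.03 CPM in Cd209a-led cells, and its highest cell was Xcr1/Clec9a-led in KO3 and WT2. With Cd209a-led cells and all other gated cells weighted alike in every library, its log2 difference was -2.02 (limma). That weighting did not fix the share of Fscn1-led cells. Of 23 genes of mature dendritic cells that passed the filter, of 30 listed, 10 were positive and 13 negative, with a median of -0.13. Ccr7 was at 579, 923 and 627 CPM in KO, against 913 and 639 CPM in WT.

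The 12 cDC1 genes that passed the filter, of 19 measured, had a median log2 difference of 0.41, which was -0.25 without KO3. It was -0.28 with Cd209a-led cells and all other gated cells weighted alike in every library (limma). In that fit the median over all genes was -0.12, and the share of Xcr1/Clec9a-led cells was not fixed. Irf8 was at 213, 19.95 and 566 CPM in KO1, KO2 and KO3, against 226 and 164 CPM in WT1 and WT2, and its ranges overlapped. Its log2 difference of 0.48 ± 1.19 (SE) was -0.63 without KO3. The 15 cDC2 genes tested had a median of 0.06, with 8 positive and 7 negative. Because the series is titled for Notch signalling, the Notch genes were read as well: 11 of 32 passed the filter, 4 positive and 7 negative, with a median of -0.11 and 0 called. Rbpj, the DNA-binding partner of Notch, was at 516, 574 and 648 CPM in KO, against 396 and 351 CPM in WT (log2 difference 0.63 ± 0.27, SE). Notch2, the receptor that some cDC2 need, was at 63.2, 54.9 and 42.2 CPM, against 112 and 74.0 CPM (log2 difference -0.79 ± 0.35, SE). Both had ranges apart, and neither passed.

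Interferon response genes were mixed, with 11 positive and 9 negative of 20 tested and a median of 0.08. Isg15, a ubiquitin-like modifier, was at 105, 529 and 467 CPM in KO1, KO2 and KO3, against 84.0 and 104 CPM in WT1 and WT2. In KO2, 67 of its 106 UMIs came from 1 cell. Without each library's highest cell, and without TMM factors, its ranges overlapped, with KO1 at 71.0 CPM and WT2 at 74.8 CPM. Irf1, an interferon-induced transcription factor, was at 34.2, 24.9 and 36.1 CPM in KO, against 71.0 and 59.9 CPM in WT, and Gbp2, a guanylate-binding protein, at 7.90, 14.96 and 39.2 CPM, against 46.7 and 66.9 CPM. Cell cycle genes had a median of -0.39 over 16 genes, 12 of them negative, which was 0.16 without WT1. Pcna, the DNA polymerase clamp, was at 126, 110 and 114 CPM in KO, against 192 and 181 CPM in WT.

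**Figure D4:**
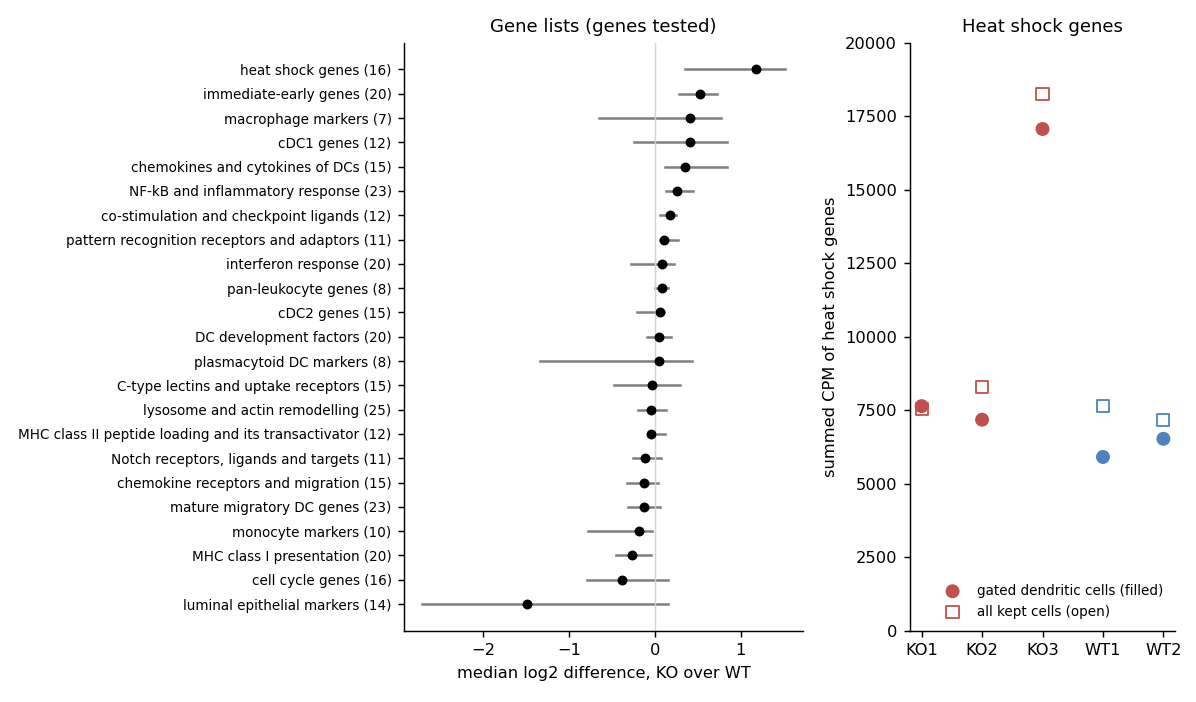
Left, the median log2 difference (KO over WT) of each gene list with at least 7 genes tested (points) and the range of that median with 1 library left out (lines). Right, the summed CPM of the 16 heat shock genes in gated cells and in all kept cells, where KO3 is highest in both at 17065 and 18240 CPM.

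Markers of other cells were also counted in the gated cells, and their sums differed between libraries. Luminal epithelial markers summed to 1603, 457 and 491 CPM in the gated cells of KO1, KO2 and KO3, against 969 and 4884 CPM in WT1 and WT2. All 14 that passed the filter, of 18 measured, had a negative log2 difference, with a median of -1.49, which was 0.15 without WT2. In WT2, 385 of 614 Krt8 UMIs lay in 1 cell scored as a doublet. Monocyte markers summed to 9403, 2731 and 2801 CPM in KO, against 5546 and 6511 CPM in WT, all 15 of them detected. Macrophage markers summed to 1251, 466 and 301 CPM, against 674 and 506 CPM. T cell markers summed to 84.5 to 328 CPM in KO, against 211 and 378 CPM in WT, with Cd3g and Cd247 at 0. B cell markers summed to 48.8 to 156 CPM in KO, against 120 and 73.5 CPM in WT, with Pax5 at 0. Basal epithelial markers reached at most 15.9 CPM, with Krt5 and Krt14 at 0. The part of these cells in the differences above was not tested. Leaving out cells scored as doublets, or cells with 20 or more epithelial UMIs per 10000, left 0 genes called. With all gated cells 0 were called already, so that count cannot measure this part.

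Only the Cd209a-led cells were numerous enough for a comparison of their own, in the 4 libraries with at least 20 of them (KO1, KO3, WT1 and WT2). In WT2, 1 cell scored as a doublet held 72851 of the 400301 UMIs of these cells, and its part in the comparison was not tested. Of 3824 genes, edgeR called 1 (0.0262%) and DESeq2 called 4. In edgeR 121 genes had an unadjusted p below 0.05. The gene was Hspa1a, with 179 and 142 UMIs in KO1 and KO3, against 10 and 16 UMIs in WT1 and WT2, a log2 difference of 4.65 ± 0.47 (SE; edgeR adjusted p = 0.0375). With the highest cell of each library left out, 0 genes were called by edgeR, with 113 at an unadjusted p below 0.05, and Hspa1a had a log2 difference of 4.80 (edgeR adjusted p = 0.999). The call was lost. The log2 difference was not smaller, and it joins KO1 and KO3 in 1 value. In KO1, however, the cell left out held 167 of the 179 UMIs and was scored as a doublet. In WT1 and WT2 the cells left out held 5 of 10 and 11 of 16 UMIs. Over all gated cells without the highest cells, and without TMM factors, Hspa1a was at 41.4 CPM in KO1 and 1198 CPM in KO3. It was at 11.4 and 10.4 CPM in WT1 and WT2, so KO3 lay much further above WT than KO1 there. Within the Cd209a-led cells, how far the remaining fold rested on KO3 alone was not tested.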

How the data were processed

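The 5 libraries were deposited as filtered 10x matrices of UMI counts (whole-number counts per gene and barcode, 32285 genes, not normalized). Per the file headers the authors made them with Cell Ranger 6.0.2 and, for KO3, 6.1.2, and per the submitters' processing notes against mm10. Cells were gated as described, and scored for doublets against simulated ones (top 0.8% per 1000 barcodes), which stayed in unless stated. Members and gene lists were chosen with earlier results of these data known. UMI counts were summed per library, with 1 mouse per library, and tested with edgeR 4.0.16 (filterByExpr, TMM, quasi-likelihood), with DESeq2 1.42.0 and limma 3.58.1 as alternatives in R 4.3.3. Adjusted p-values are Benjamini-Hochberg over all genes tested. Subsets were fitted only in libraries with at least 20 cells of that subset. Shares were compared by two-sided exact permutation over libraries. Named genes were up to 10 per direction, by the rule stated with them, plus from each list the 4 with the highest level and the 2 with the smallest p. Heat shock and Fscn1-led genes singled out beyond these were chosen after their values were seen. Total counts were 225528 to 585350 UMIs per library in gated cells. The pipeline was tested on simulated data drawn from these counts. Intervals and limits cover counting error only. Gene positions came from GENCODE by gene ID.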

Additional observations from a re-analysis of the deposited data

How the results depend on the processing

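For the 20 genes chosen by p and ranges, Hspa1a in Cd209a-led cells and 18 list genes printed with values, 618 values under the alternatives kept direction and call, 19 passed the threshold in addition, 1 no longer passed and 11 reversed. Irf8 was -0.63 in the same 4 libraries with no block and -1.07 with the replicate block. It was -0.81 with a fixed mix of Cd209a-led and all other gated cells and -0.63 to 0.998 with 1 library left out. Ccr7 was -0.374 to 0.157 with 1 library left out. H2-DMa, at 0.0097, was -0.0218 without the low-count filter, -0.0874 without doublets, -0.115 with few epithelial transcripts, -0.103 with a fixed mix and -0.0593 to 0.0781 with 1 library left out. Genes called in all gated cells numbered 0, and 1 with DESeq2, 29 without the low-count filter, 0 to 13 with 1 library left out, and 7 (a gate gene included) with the replicate block over KO1, KO2, WT1 and WT2, against 2 in the same 4 libraries with no block. Same-numbered libraries correlated at 0.047 over 4443 genes in their deviations, with only 2 pairs, so the numbers were not shown to pair the mice. In Cd209a-led cells 1 gene was called, and 4 with DESeq2, 0 without the highest Hspa1a cell of each library, and 2 to 103 with 1 library left out (103 without KO1, 31 without KO3, 20 without WT1, 2 without WT2), where the lone sample of a genotype was assumed to vary like the other genotype. The interaction with C1q-high cells called 0 genes, 14 without the filter and 0 to 2 with 1 library left out. The cause of these shifts was not tested. The comparison without block in 4 libraries, that without the highest cells and DESeq2 in Cd209a-led cells were chosen after seeing the data.

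The difference in share of kept cells, 0.0574 percentage points, was -0.0294 with at least 3 marker UMIs, -0.174 at 2000 UMIs per cell and -0.480 to 0.370 with 1 library left out. The difference among Ptprc-positive cells, 1.38, was -0.193 at 2000 UMIs and -0.579 to 2.91 with 1 library left out. The Fscn1-led share difference, -1.78, was -7.01 at 2000 UMIs and -3.21 to 0.315 with 1 library left out. For cells without a leading gene, 2.87, it was -0.772 with at least 3 marker UMIs, -1.61 at 4000 UMIs and -3.66 to 9.39 with 1 library left out. With 23 to 54 cells per library and 3 against 2 libraries, changes near 2-fold in gene counts could not be detected in the simulation. That simulation did not cover shares. For shares, the smallest p that the exact permutation test can give with all libraries is 0.1. No share difference, however large, could give a smaller p, so the test cannot decide whether shares differ.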
